A study of Homo sapiens with 9 samples.

Results

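TNF superfamily ligands are a family of cytokines that signal to neighbouring cells, and 10 of their genes were followed here, out of 58735 genes in the count table: TNF, LTA, LTB, TNFSF4, TNFSF9, TNFSF10, TNFSF12, TNFSF13B, TNFSF14 and TNFSF15. They were chosen by gene name. The cells were HEK293A, a flat-growing derivative of the human embryonic kidney line HEK293, with the gene for p65 knocked out in all 3 groups. One group received an empty vector, one a plasmid for p65 WT and one a plasmid for p65 2CS, and 24 h later every group was given 20 ng/mL TNF for 2 h. Each group had 3 libraries, and no library came from cells without TNF, so no effect of the added TNF is measured here. The labels do not spell out 2CS, do not say whether the knockout is a single clone or what share of cells took up a plasmid, and do not say whether the libraries of a group were separate cultures. Should they be technical repeats, the p-values speak only to technical spread between libraries.

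Most ligands of this family are made as membrane proteins with the C-terminal end outside the cell, assemble as trimers, and act at the membrane or after a protease releases them. They bind receptors of the TNF receptor superfamily, many of which activate NF-kB, and p65, encoded by RELA, is the main transactivating subunit of NF-kB. Several ligand genes are themselves classical NF-kB targets, TNF among them, so that the pathway can raise its own ligand. The family is best known from lymphocytes and myeloid cells rather than from kidney epithelium.

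Vector libraries held 17923114 to 20162267 counts, p65 WT libraries 15989601 to 16507689 and p65 2CS libraries 17146134 to 25068515. RELA, the targeted gene, stood at 65.9 to 69.0 CPM (the usual counts-per-million unit, scaled by the TMM method) in the vector libraries, 8037 to 9922 CPM with p65 WT and 24036 to 26771 CPM with p65 2CS, so that the 2 forms were not matched in transcript level. The marker genes fixed for HEK293 cells were all 9 detected in every group, led by KRT8 and NEFL. Their sum was 2165 to 2181 CPM with vector, 2031 to 2092 CPM with p65 WT and 1912 to 1975 CPM with p65 2CS. Against vector 5 of the 9 were lower and 1 higher with p65 WT, and 4 lower and 0 higher with p65 2CS. Over all genes tested 12.5% were lower and 16.4% higher with p65 WT, and 11.4% and 12.1% with p65 2CS. NEFM went against the sum, at 0.253, 1.75 and 0.401 CPM in the order vector, p65 WT, p65 2CS. The 12 leukocyte markers summed to at most 7.97 CPM in any library. Their sum was lowest with vector, at 5.33 CPM or more, and ran from 6.46 CPM upward with p65 WT and from 6.40 to 6.96 CPM with p65 2CS. PTPRC, the pan-leukocyte gene, had 0 reads in the vector and p65 WT groups, as did CD3D, and MS4A1 had 0 everywhere. CD3E also had 0 with vector. One of the 4 that could be tested, ITGAM, rose in both p65 groups, from a mean of 0.421 CPM to 2.24 CPM (p65 WT) and 1.45 CPM (p65 2CS). The 8 endothelial and fibroblast markers summed to 73.5 to 81.4 CPM with vector, 95.9 to 98.5 CPM with p65 WT and 71.4 to 75.8 CPM with p65 2CS, with DCN at 0 in the first and last. Among them CDH5, the cadherin of endothelial junctions, rose in both p65 groups, from a mean of 0.0979 CPM to 10.5 CPM (p65 WT) and 2.38 CPM (p65 2CS), and was lower with p65 2CS than with p65 WT (edgeR adjusted p = 7.73e-11). The other endothelial markers showed no such rise. In the order vector, p65 WT, p65 2CS, KDR stood at 0.933, 0.832 and 0.650 CPM and TEK at 0.197, 0.333 and 0.152 CPM. PECAM1 had 7, 3 and 1 counts in the same order. Most of the sum came from COL1A1 (49.1, 56.4 and 49.3 CPM) and COL3A1 (26.4, 27.3 and 20.6 CPM). What part other cells had in the ligand values was not tested. Bulk libraries cannot tell apart fewer cells carrying a transcript and less transcript per cell.

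Ahead of the values, the sequences around 4 ligand starts are shown, because 3 of these genes lie side by side on chromosome 6 and reached different levels, and TNFSF9 was the most abundant ligand. Each run holds 250 bases before and 50 bases after a RefSeq transcript start on GRCh38.p14, read 5′ to 3′ on the gene's strand. Capitals mark matches to the relaxed or strict consensus of the kB motif bound by NF-kB, searched on both strands, where every strict match is also a relaxed one and overlapping matches run together.
TNF (chr6:31575315-31575614, plus strand): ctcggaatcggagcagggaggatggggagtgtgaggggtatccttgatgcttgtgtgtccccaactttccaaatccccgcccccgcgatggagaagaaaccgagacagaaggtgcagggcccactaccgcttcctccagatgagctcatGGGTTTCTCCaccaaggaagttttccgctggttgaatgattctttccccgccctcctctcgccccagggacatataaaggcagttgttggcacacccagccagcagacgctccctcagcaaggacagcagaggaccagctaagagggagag
LTA (chr6:31572039-31572338, plus strand): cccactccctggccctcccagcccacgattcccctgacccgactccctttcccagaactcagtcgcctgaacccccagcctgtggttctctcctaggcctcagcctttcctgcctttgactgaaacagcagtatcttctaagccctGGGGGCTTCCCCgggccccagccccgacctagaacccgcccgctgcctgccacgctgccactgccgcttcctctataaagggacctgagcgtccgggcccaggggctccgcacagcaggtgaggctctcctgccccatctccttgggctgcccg
LTB (chr6:31582376-31582675, minus strand): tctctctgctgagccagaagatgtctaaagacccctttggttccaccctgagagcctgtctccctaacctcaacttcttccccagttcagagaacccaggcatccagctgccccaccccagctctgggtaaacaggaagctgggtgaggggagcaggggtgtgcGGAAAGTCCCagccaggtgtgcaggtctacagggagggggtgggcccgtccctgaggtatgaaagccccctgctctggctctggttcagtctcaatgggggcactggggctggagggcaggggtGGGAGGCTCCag
TNFSF9 (chr19:6530776-6531075, plus strand): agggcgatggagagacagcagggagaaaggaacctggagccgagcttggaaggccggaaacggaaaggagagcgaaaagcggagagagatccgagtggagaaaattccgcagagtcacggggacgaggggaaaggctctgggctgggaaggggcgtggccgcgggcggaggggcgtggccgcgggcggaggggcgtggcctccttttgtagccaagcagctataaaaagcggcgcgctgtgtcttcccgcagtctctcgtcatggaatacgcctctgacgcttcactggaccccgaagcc

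In these windows TNF held 1 relaxed kB match, GGGTTTCTCC, at -101 to -92, counted from the first transcribed base as 0. LTB held a strict match on the reverse strand, printed as GGAAAGTCCC, at -86 to -77, and a relaxed one at 38 to 47. LTA held a strict match, GGGGCTTCCC, at -103 to -94, inside a run of overlapping relaxed matches, and none in the window of its other listed start. TNFSF9 held neither form, and had a TATA box (TATAAA) at -30 to -25 and 2 GC boxes (GGGCGG). Over all 35116 promoter windows of this length, 5.91% held the strict and 32.6% the relaxed consensus, 11.5% TATAAA and 45% GGGCGG.

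RefSeq windows were matched for 9 of the 10 ligands, all but TNFSF12. The windows of TNFSF4, TNFSF10, TNFSF13B and TNFSF15 held no kB match of either form, while TNFSF14 held the strict match GGGGCTCCCC and an AP-1 motif (TGANTCA, in 7.71% of all windows). TNFSF15 also held the AP-1 motif, at -120 to -114. The RefSeq starts lay at most 430 bases from the gene start given in the count table for TNF, LTA, LTB, TNFSF9, TNFSF10 and TNFSF14, but 1781 bases inside the gene for TNFSF4, 13596 bases for TNFSF15 and 18389 and 18478 bases for the 2 starts of TNFSF13B. A match describes these letters and not a bound site, and binding was not assayed.

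Compared with vector, p65 WT came with a rise in transcripts of 4 of the 10 ligands: TNF, LTB, TNFSF4 and TNFSF9. The others were either too low to test (LTA, TNFSF10, TNFSF12, TNFSF13B and TNFSF14) or did not pass the threshold (TNFSF15). None of the 5 tested ligands fell. In the p65 2CS cells TNF, LTB and TNFSF9 rose over vector, and set against p65 WT directly, TNF, TNFSF4 and TNFSF9 were lower with p65 2CS. Testing was by edgeR's quasi-likelihood test with a threshold of 0.05 on the Benjamini-Hochberg adjusted p over 18195 genes. Among all genes tested 28.8% were called for p65 WT against vector (16.4% higher, 12.5% lower) and 23.4% for p65 2CS against vector (12.1% higher). Between the 2 forms 31.2% were called, 17.9% as lower with p65 2CS. The higher and lower calls with p65 WT numbered 2976 and 2268, and 2554 and 3659 with library totals as the only scaling. TNF and LTB passed the filter on low counts only through the p65 libraries. TNFSF15 also needed p65 libraries to pass, since it reached the cutoff in 2 vector libraries where 3 were required. The 5 tested ligands are therefore not a neutral sample of the family.

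**Figure D1:**
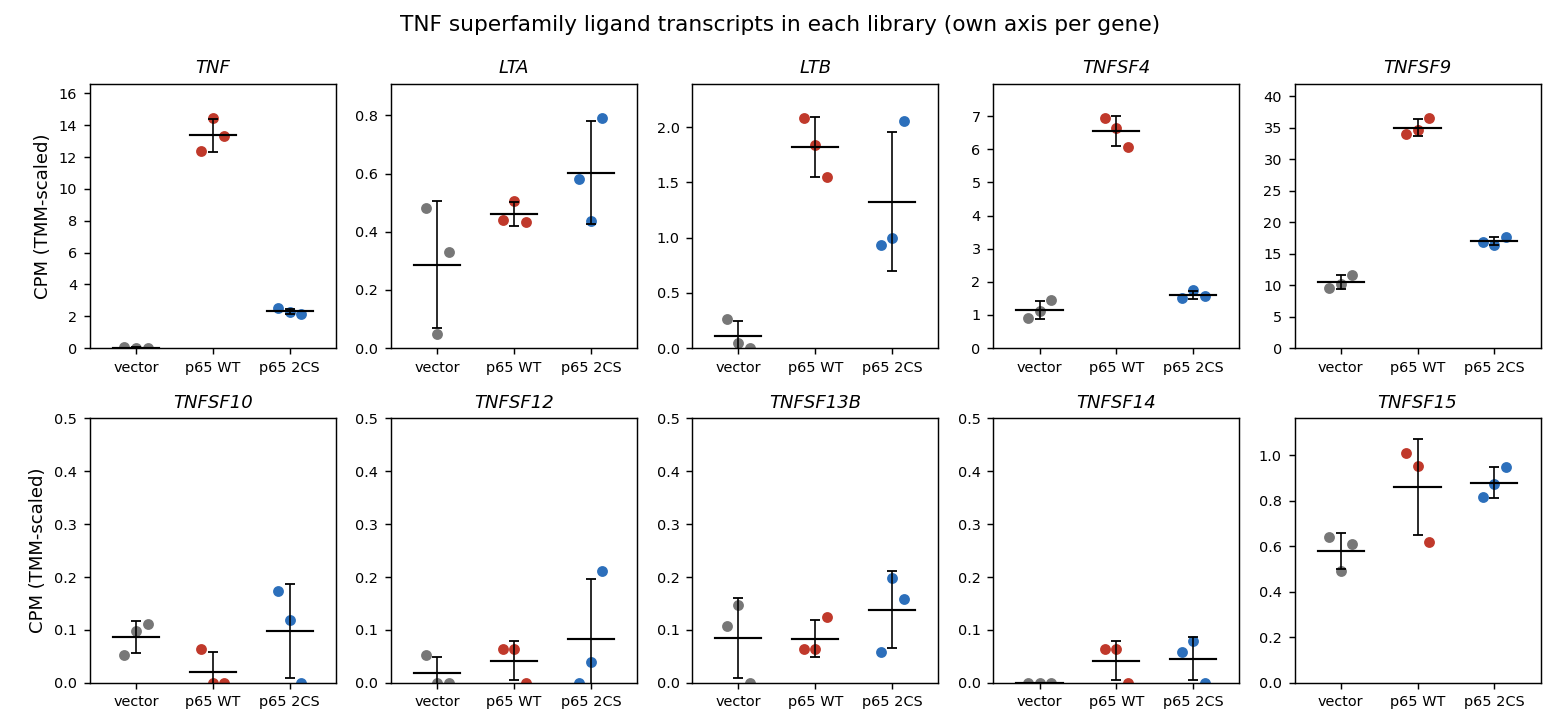
Level of each of the 10 ligands in CPM (vertical axis, own scale per gene) in the 3 libraries of vector, p65 WT and p65 2CS, with points for libraries, horizontal lines for means and bars for the SD, cut off at 0. TNF reaches 12.4 to 14.4 CPM with p65 WT against 2.16 to 2.50 CPM with p65 2CS, while the panels of TNFSF10, TNFSF12, TNFSF13B and TNFSF14 stay under 0.22 CPM.

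TNF, the founding member and the cytokine that was also added to the medium as protein, had the widest range. Its gene (ENSG00000232810, chromosome 6, 31575567 to 31578336, plus strand) gave 1, 0 and 0 counts in the vector libraries, 196, 228 and 215 with p65 WT and 43, 57 and 41 with p65 2CS. In scaled units these were 12.4, 14.4 and 13.3 CPM with p65 WT and 2.50, 2.27 and 2.16 CPM with p65 2CS. The 3 groups did not overlap, with near silence under vector, the highest level under p65 WT and an intermediate one under p65 2CS. Against the single vector count, which came from replicate 1, the ratio of pooled counts was 132 for p65 2CS, with an exact 95% counting interval (Clopper-Pearson) of 23.3 to 5237. For p65 WT the same interval was 137 to 30276. Between the forms TNF was 5.79-fold lower with p65 2CS (95% interval 4.59 to 7.31, n = 3 each, edgeR adjusted p = 3.91e-16).

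LTA and LTB encode the lymphotoxins and flank TNF within the same gene cluster: LTB tethers lymphotoxin alpha to the membrane, where the complex engages LTBR. LTB (ENSG00000227507, chromosome 6, 31580525 to 31582522, minus strand) had 5, 1 and 0 counts with vector, 33, 29 and 25 with p65 WT, and 16, 25 and 39 with p65 2CS. In CPM these were 0.105 ± 0.142, 1.82 ± 0.269 and 1.33 ± 0.632 in the same order (SD, n = 3). Both p65 groups lay above all vector libraries, and they overlapped each other because p65 2CS replicate 9 reached 2.06 CPM, against 0.931 and 0.994 CPM in replicates 7 and 8. The log2 fold over vector was 4.03 ± 0.55 (standard error) with p65 WT and 3.57 ± 0.56 with p65 2CS (edgeR adjusted p = 1.03e-07 and 5.19e-06). Of the 6 vector counts 5 came from replicate 1, without which these became 5.80 and 5.34, fitted values that depend on the prior count.

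Between the 2 forms LTB did not pass the threshold, with a log2 fold of -0.46 (95% interval -1.18 to 0.25, edgeR adjusted p = 0.349). That interval includes no difference and also a fall of more than 2-fold. Without p65 2CS replicate 9 the value was -0.91, and without replicate 8 it was -0.27, neither past the threshold.

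LTA (ENSG00000226979, chromosome 6, 31572054 to 31574324, plus strand) lies 1.243 kb from TNF and gave few reads: 9, 1 and 6 counts with vector, 7, 8 and 7 with p65 WT and 10, 11 and 15 with p65 2CS. The groups overlapped, and the gene did not pass the filter on low counts. From pooled counts its ratio to vector was 1.65 with p65 WT (95% counting interval 0.826 to 3.35) and 2.10 with p65 2CS (1.14 to 4.06), intervals that cover counting error only. In the fit without a filter, over 36884 genes, the edgeR adjusted p was 0.551 and 0.278. In group means LTA stood at 0.287, 0.460 and 0.603 CPM with vector, p65 WT and p65 2CS, and TNF beside it at 0.0178, 13.4 and 2.31 CPM.

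TNFSF9, the ligand of the costimulatory receptor TNFRSF9, was the one member already well expressed with vector. Its gene (ENSG00000125657, chromosome 19, 6530999 to 6535928, plus strand) gave 9.61, 10.2 and 11.7 CPM with vector, 33.9, 34.6 and 36.5 CPM with p65 WT, and 16.9, 16.3 and 17.6 CPM with p65 2CS, from 180 to 591 counts per library. No 2 groups overlapped. The rise over vector was 3.34-fold with p65 WT and 1.61-fold with p65 2CS (edgeR adjusted p = 4.86e-21 and 7.62e-08). The level with p65 2CS was 2.07-fold lower than with p65 WT (95% interval 1.86 to 2.30, edgeR adjusted p = 9.44e-15).

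TNFSF4, known as OX40 ligand and a costimulator of T cells through TNFRSF4, rose with p65 WT. Its gene (ENSG00000117586, chromosome 1, 173183734 to 173207313, minus strand) gave 17, 23 and 26 counts with vector, 110, 105 and 98 with p65 WT and 26, 44 and 30 with p65 2CS. The p65 WT libraries at 6.06 to 6.94 CPM stood far above both other groups, and the p65 2CS libraries at 1.51 to 1.75 CPM lay just above the vector libraries at 0.907 to 1.44 CPM without overlap. The fold over vector was 5.65 with p65 WT (log2 2.50 ± 0.22, edgeR adjusted p = 1.04e-12). With p65 2CS it was 1.41 and did not pass the threshold (log2 0.49, 95% interval -0.02 to 1.00, edgeR adjusted p = 0.164). Against p65 WT the p65 2CS level was 4.02-fold lower (95% interval 3.03 to 5.33, edgeR adjusted p = 1.06e-10).

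TNFSF15, also called TL1A, a ligand of TNFRSF25 best known from endothelial and myeloid cells, was low in all groups. Its gene (ENSG00000181634, chromosome 9, 114784635 to 114806126, minus strand) gave 0.579 ± 0.0795 CPM under vector, 0.859 ± 0.211 under p65 WT and 0.879 ± 0.0670 under p65 2CS (SD, n = 3), from 10 to 22 counts per library. Its p65 2CS libraries lay above the vector libraries, and its p65 WT libraries overlapped them. Neither contrast with vector passed the threshold (log2 fold 0.57 ± 0.41 and 0.60 ± 0.39, edgeR adjusted p = 0.324 and 0.29). The intervals reached up to 1.39 on the log2 scale in both, so a rise of more than 2-fold was within them.

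The remaining 4 ligands were at or near the limit of detection. TNFSF14, or LIGHT, had 0 counts with vector, which allows up to 3 counts or 0.0524 CPM over the group, and 2 and 3 counts over the p65 WT and p65 2CS groups. TNFSF12, or TWEAK, had 1, 2 and 5 counts over vector, p65 WT and p65 2CS, of which 4 came from p65 2CS replicate 9. TNFSF10, the death-inducing ligand TRAIL, had 5, 1 and 6 counts, and TNFSF13B, the B cell survival factor BAFF, had 5, 4 and 9. Differences among groups were not detectable for these at so few counts: the counting intervals of every ratio that could be formed included 1.

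For TNFSF12 the annotation also limits what can be read. A read-through gene, TNFSF12-TNFSF13, covers 97.69% of its span on the same strand and had 0 counts in all 9 libraries. How shared reads were assigned is not given in the sources used here. An antisense gene, AC016876.3, overlaps 71 bases of TNFSF12 and had 5 to 18 counts per library, and reads of the 2 strands cannot be told apart without a known strand setting. Of the other ligands, TNFSF10 and TNFSF13B overlapped small gene models with at most 1 count in all, and the remaining 7 overlapped no other gene.

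Levels of different genes can be compared only per length, and were divided by the gene length in the count table. With vector TNFSF9 led at 6.31 ± 0.633 CPM per kb, above every library of TNFSF4 at 0.293 ± 0.0676, and from TNFSF4 downward each ligand's libraries overlapped those of the next. With p65 WT the order was TNFSF9 at 21.0 ± 0.810, TNF at 7.98 ± 0.622, TNFSF4 at 1.66 ± 0.114, LTB at 1.19 ± 0.175, LTA at 0.265 ± 0.0233 and TNFSF15 at 0.109 ± 0.0267 CPM per kb, with no overlap between neighbours down to TNFSF13B. With p65 2CS TNFSF9 stood at 10.2 ± 0.380 CPM per kb. TNF at 1.38 ± 0.104 overlapped LTB at 0.864 ± 0.411, and TNFSF4 at 0.409 ± 0.0308 overlapped LTA at 0.347 ± 0.102 CPM per kb. By mean level TNF thus ranked 8 of 10 with vector and 2 of 10 in both p65 groups.

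**Figure D2:**
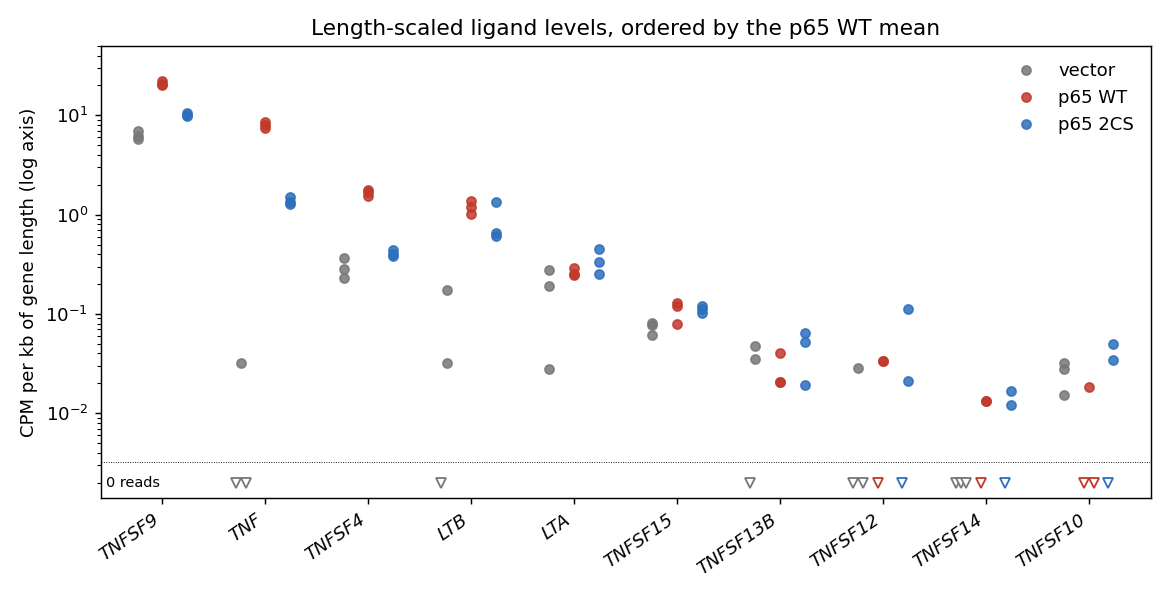
Level per library in CPM per kb of gene length (vertical log axis) for the 10 ligands ordered by their p65 WT mean, with colours for vector, p65 WT and p65 2CS and open triangles below the dotted line for libraries with 0 reads. TNFSF9 is the highest ligand in each group, and TNF lies second in both p65 groups but has 0 reads in 2 vector libraries.

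The fitted size of the fold was compared among the tested ligands. With p65 WT against vector, the 95% intervals of the log2 fold were apart in 9 of the 10 pairs. The exception was LTB with TNFSF4. TNF, LTB and TNFSF15 needed p65 libraries to pass the filter on low counts, so pairs that include them are no support for a difference. TNFSF4 and TNFSF9 passed it in the vector libraries too, with intervals of 2.06 to 2.93 and 1.57 to 1.91. With p65 2CS against vector 7 of 10 pairs were apart, and TNFSF4, TNFSF9 and TNFSF15 overlapped each other. The fitted value of TNF against vector (9.11) depends on the prior count, since the vector group held 1 read. Between the 2 forms 7 of 10 pairs were apart. There TNF (-2.53, interval -2.87 to -2.20) and TNFSF4 (-2.01, -2.42 to -1.60) overlapped and both lay below TNFSF9 (-1.05, -1.20 to -0.89), while LTB overlapped TNFSF9 and TNFSF15.

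**Figure D3:**
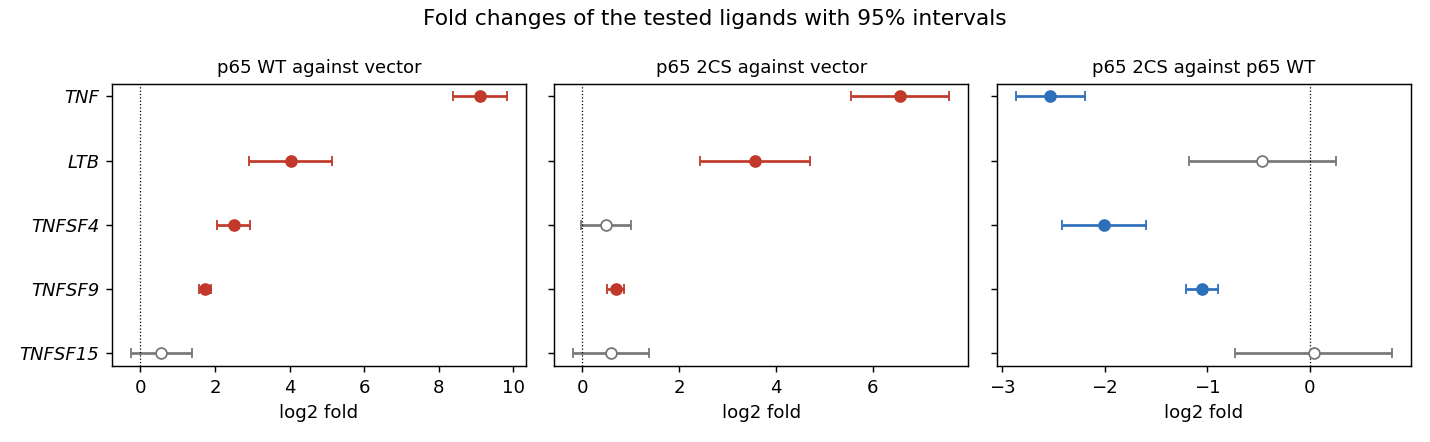
Log2 fold of the 5 tested ligands (rows) in each of the 3 contrasts (panels), with bars for 95% intervals, red for called higher, blue for called lower and open grey for not called. In the right panel TNF, TNFSF4 and TNFSF9 lie below 0 and the intervals of LTB and TNFSF15 cross it; the other panels share the vector libraries, and TNF there rests on 1 vector read.

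The ratio of 2 ligands within a library does not depend on how libraries are scaled. The TNF to LTB count ratio was 5.94, 7.86 and 8.60 in the p65 WT libraries and 2.69, 2.28 and 1.05 in the p65 2CS libraries. The TNF to TNFSF9 ratio was 0.364, 0.418 and 0.364 with p65 WT and 0.148, 0.139 and 0.123 with p65 2CS. Both ratios were lower in each p65 2CS library than in any p65 WT library. Of the 6 pairs among TNF, LTB, TNFSF4 and TNFSF9, 5 gave an exact two-sided permutation p of 0.1, the smallest that 3 against 3 libraries allow, and LTB with TNFSF9 gave 0.3 by the exact test (adjusted over the 6 pairs, 0.12 and 0.3). No pair could pass the threshold in this design.

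Of 49 protein-coding genes within 100000 bases of a ligand gene, the ligands left out, 37 were tested, and 11 rose and 0 fell with p65 WT, with a median log2 fold of 0.08 against -0.02 over all genes tested. With p65 2CS 9 rose and 1 fell against vector, and 7 were lower and 3 higher than with p65 WT. Over all genes tested the shares were 16.4% higher and 12.5% lower with p65 WT, 12.1% and 11.4% with p65 2CS, and between the forms 17.9% lower and 13.4% higher. The 7 of 37 lower between the forms was near that background. Around TNF, LTA and LTB 3 of 12 tested genes rose with p65 WT, most strongly MICB, a ligand of an activating NK cell receptor. It had 10.7 CPM with vector, 21.9 CPM in the p65 WT cells and 21.0 CPM in the p65 2CS cells, a log2 fold of 1.02 ± 0.09 and 0.97 ± 0.08 (edgeR adjusted p = 5.34e-13 and 7.3e-12). MICA is a close relative of MICB, and how reads that fit both were assigned was not tested. NFKBIL1 and DDX39B, which lie between MICB and the ligands, were not called with p65 WT against vector. NFKBIL1 rose with p65 2CS (log2 fold 0.39 ± 0.08, edgeR adjusted p = 0.000254), and both were higher with p65 2CS than with p65 WT, by 0.34 and 0.15 on the log2 scale (edgeR adjusted p = 0.00103 and 0.00054).

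Around TNFSF9 and TNFSF14 on chromosome 19, 5 of 10 tested genes rose and 0 fell with p65 WT, beside 16.4% and 12.5% over all genes. With p65 2CS 4 rose and 1 fell against vector, beside 12.1% and 11.4%. Between the forms 0 were higher and 4 lower with p65 2CS, beside 13.4% and 17.9%. Among the 5, SLC25A23 rose by only 0.09 on the log2 scale (edgeR adjusted p = 0.0486). The strongest rise with p65 WT was that of CD70, another ligand of the superfamily, which binds CD27 and lies 47.26 kb from TNFSF9. In the order vector, p65 WT, p65 2CS its level was 3.72 ± 0.389, 32.8 ± 2.17 and 7.92 ± 0.105 CPM (SD, n = 3), with no overlap between groups. Its log2 fold was 3.14 ± 0.11 and 1.09 ± 0.12 over vector and -2.05 ± 0.09 between the forms (edgeR adjusted p = 2.84e-26, 5.81e-09 and 1.45e-21). TRIP10, a membrane-curving adaptor near TNFSF14, rose from 38.6 CPM to 82.2 CPM in the p65 WT group and to 45.9 CPM in the p65 2CS group.

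**Figure D4:**
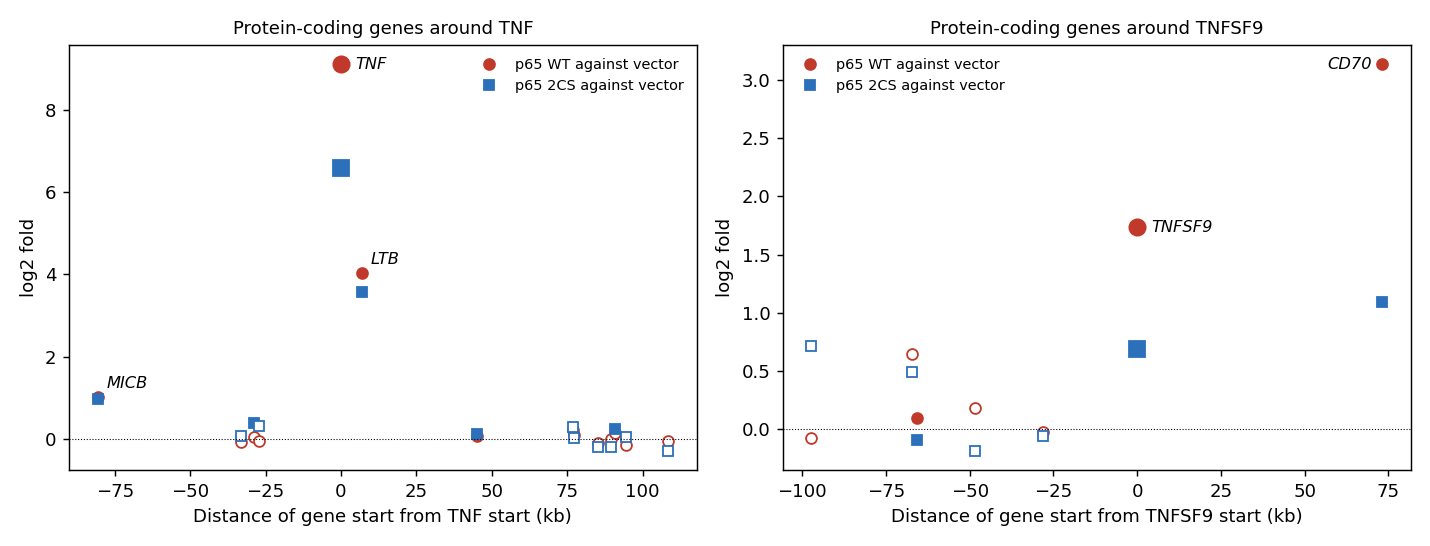
Log2 fold against vector (vertical axis) of tested protein-coding genes within 100000 bases of TNF (left) or TNFSF9 (right) by distance between gene starts in kb, with red circles for p65 WT, blue squares for p65 2CS, filled symbols for called genes and large symbols for the ligand itself. LTB and MICB near TNF and CD70 near TNFSF9 stand above a log2 fold of 1 with p65 WT, and most other genes lie near 0.

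Of the 8 other ligand genes of the superfamily, 3 were tested. CD70 rose as given above, while EDA, the ectodysplasin of skin appendage development (15.6, 14.7 and 15.6 CPM), and TNFSF13, or APRIL (3.11, 3.28 and 2.13 CPM), were not called against vector. TNFSF13 was lower with p65 2CS than with p65 WT (log2 fold -0.63 ± 0.22, edgeR adjusted p = 0.0293). FASLG, CD40LG and TNFSF11 had 0 counts in every library, and TNFSF8 and TNFSF18 were too low to test.

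Receptors of the 10 ligands gave 7 rises and 1 fall among 13 tested of 17 with p65 WT, and 3 rises and 1 fall with p65 2CS. Their median log2 fold was 0.26 and 0.09, against -0.02 and 0.00 over all genes tested. Of all genes tested 16.4% rose and 12.5% fell with p65 WT, and 12.1% rose and 11.4% fell with p65 2CS. TNFRSF1B and TNFRSF4 passed the filter on low counts only through the p65 WT libraries, where they were high, so their 2 rises and the median are no support for the list. Between the forms 0 receptors were higher and 5 lower with p65 2CS, beside 13.4% higher and 17.9% lower over all genes tested. TNFRSF1B and TNFRSF4 were 2 of those 5, so this count is no support for the list either. TNFRSF9, the receptor of TNFSF9, had 2.42 ± 0.588, 16.7 (libraries 15.5 to 18.4) and 14.8 ± 1.31 CPM with vector, p65 WT and p65 2CS, and TNFRSF4, the receptor of TNFSF4, 0.213 ± 0.152, 0.981 ± 0.303 and 0.349 ± 0.156 CPM (SD, n = 3). TNFRSF9 did not pass the threshold between the forms (log2 fold -0.16, 95% interval -0.38 to 0.05, edgeR adjusted p = 0.256), whereas its ligand was lower with p65 2CS. TNFRSF1A, through which added TNF acts on most cells, was at 51.8, 56.2 and 48.1 CPM and was not called against vector in either p65 group, but was lower with p65 2CS than with p65 WT (log2 fold -0.23 ± 0.06, edgeR adjusted p = 0.00112). TNFRSF1B, the other TNF receptor, had 0 counts in all vector libraries, 26, 11 and 33 in those of p65 WT and 0, 3 and 1 in those of p65 2CS, and rose with p65 WT (edgeR adjusted p = 4.86e-08). LTBR was at 84.3, 94.7 and 97.1 CPM, a rise in both. TNFRSF12A, the receptor of TNFSF12, fell in both, by 0.44 and 0.45 on the log2 scale. TNFRSF10D, a decoy receptor of TNFSF10, rose from 27.0 to 53.4 CPM with p65 WT and was not called with p65 2CS at 28.6 CPM.

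A list of 8 genes for the processing of these ligands held proteases, but also the inhibitor TIMP3 and the inactive rhomboids RHBDF1 and RHBDF2. It mixes genes of opposite roles, so its counts have no single reading. Of these 8 genes 3 rose and 2 fell with p65 WT, and 2 rose and 2 fell with p65 2CS (median log2 fold 0.13 and 0.02). Over all genes tested the shares were 16.4% higher and 12.5% lower, and 12.1% and 11.4%. Between the forms 1 was higher and 4 were lower with p65 2CS, beside 13.4% higher and 17.9% lower over all genes tested. ADAM17, the protease that sheds TNF from the membrane, was not called in any contrast, and the inactive rhomboid RHBDF1, a relative of the ADAM17 partner RHBDF2, rose from 44.4 CPM to 107 CPM in the p65 WT cells and to 53.1 CPM in the p65 2CS cells. TIMP3, an inhibitor of ADAM17, fell from 259 to 202 and 173 CPM, and was 1 of the 2 falls in each p65 group.

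Among 9 genes for RNA-binding proteins that act on the stability or translation of cytokine messages, 5 rose and 0 fell with p65 WT, and 3 rose and 0 fell with p65 2CS (median log2 fold 0.16 and -0.02), beside 16.4% and 12.1% higher over all genes tested. Between the forms 0 were higher and 5 lower with p65 2CS, beside 17.9% lower over all genes. ZFP36, which speeds the decay of TNF mRNA, stood at 6.51 to 7.68 CPM in the vector libraries, 30.7 to 40.1 CPM in those of p65 WT and 13.6 to 14.6 CPM in those of p65 2CS, and rose in both. ZC3H12A, an endonuclease of cytokine messages, stood at 9.61 ± 2.31, 16.1 ± 1.71 and 12.9 ± 0.802 CPM. The counts hold steady-state transcript and not its decay.

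TNF and TNFSF9 were the ligands called in all 3 contrasts, and the tested genes with the most similar profiles were found by the Euclidean distance between centred log2 CPM values over the 9 libraries (prior count 2). Nearest to TNF were the noncoding RNA LINC02538 (distance 0.963; group means of 0, 17.1 and 2.84 CPM in the same order of groups) and the neutrophil chemokine CXCL1 (0.983; 0.0712, 16.02 and 3.34 CPM). Nearest to TNFSF9 were TAPBP, of MHC class I peptide loading (0.241; 53.1, 175 and 79.7 CPM), and the zinc finger gene ZNF235 (0.274; 5.30, 19.2 and 8.36 CPM).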

How the data were processed

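Poly-A selected RNA of 9 libraries was sequenced. The submitters' processing notes name HISAT2 2.0.5, a read aligner. The values the authors deposited are raw read counts per gene, without normalization. Which tool counted the reads, with which strand setting and on which genome build, is not given in the sources used here. All 58735 gene identifiers, positions and strands matched GENCODE release 29, on GRCh38. The extract protocol in the labels allows for a stranded or an unstranded library.

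The analysis used edgeR 4.0.16 under R 4.3.3: expression filter (18195 genes tested, 40540 not), TMM scaling, 1 quasi-likelihood fit of all libraries, Benjamini-Hochberg adjustment over all genes tested. The filter asked for about 0.558 CPM in at least 3 libraries. CPM uses TMM-scaled totals over tested genes, and CPM per kb divides by the deposited gene length. Standard errors and 95% intervals follow from the F test. Promoter windows are RefSeq's. Alternatives were DESeq2 1.42.0, limma 3.58.1 voom, other scalings and filters, pairwise fits and leaving out each library. The code was tested on simulated data.

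Within groups every pair of libraries differed beyond sampling noise (chi-square per degree of freedom 1.91 to 2.65). Intervals and floors from counts cover counting error only: reads lacking molecular identifiers cannot be counted as separate molecules.

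All 10 ligands are named. Of the other lists, counts are given and called genes named by size or as partners of a ligand; for the ligands called in all contrasts, the 2 nearest profiles are named. ADAM17, EDA, TNFSF13, TNFRSF1A and ZC3H12A were named for their role, or to complete a count, after their values were seen, as were NFKBIL1, DDX39B and the genes with 0 counts. The ligands and lists were chosen with earlier results of these data known.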

Additional observations from a re-analysis of the deposited data

How the results depend on the processing

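The calls of the ligands did not depend on the settings tried. Over 16 alternatives (DESeq2, limma voom, library totals alone, RLE factors, RELA left out, no filter beyond 1 count, only the 2 groups compared, and each of the 9 libraries left out), the number of ligands called was 4 with p65 WT against vector, 3 with p65 2CS against vector and 3 between the forms in all 48 results, against the same numbers as reported. Of 240 log2 folds of single ligands 238 kept their direction and their side of the threshold. The exceptions were TNFSF15 between the forms, where the reported 0.04 became -0.15 without p65 WT replicate 6 and -0.02 without p65 2CS replicate 9, and reached 0.17 without p65 WT replicate 4, none of them called. With each library left out, the log2 fold of TNF with p65 WT lay between 8.62 and 10.95 and with p65 2CS between 6.09 and 8.41, both highest without vector replicate 1, which held the single vector read. Counts over all genes, both directions together, stayed within 1.5 times the reported ones; in 1 direction, the 2268 genes lower with p65 WT than with vector became 3659 with library totals as the only scaling. No paired analysis was possible because the replicate numbers run from 1 to 9 and no number is shared between groups. Low counts limit what can be said of LTA, TNFSF10, TNFSF12, TNFSF13B and TNFSF14, which held 5 to 74 counts over all 9 libraries. For TNFSF12 it is also unknown how reads shared with TNFSF12-TNFSF13 were assigned. Whether its low count reflects depth or read assignment was not tested.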
